A study of Mus musculus with 28 samples.

Results

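The genes examined were 10 genes of the pluripotent state that lie downstream of Oct4 or are marks of undifferentiated cells, namely Fgf4, Utf1, Lefty1, Lefty2, Tdgf1, Nodal, Dppa3, Dppa2, Dppa4 and Dppa5a. They were chosen by name, and all 10 were found among the 22367 protein-coding genes of the GENCODE vM1 annotation of the mm9 build. Each gene was taken with 20 kb on either side, and every listed peak in that window was counted. The windows of Lefty1 and Lefty2 overlapped, as did those of Dppa2 and Dppa4, so the 10 windows joined into 8 and covered 425 kb.

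The peaks came from ChIP-seq of HATX cells, a haploid line of mouse embryonic stem cells (mESCs), grown in serum with LIF, on a mixed strain background. HATX cells carry an inducible Xist transgene in both genotypes. WT cells were compared with Spen KO cells, which were 1 knockout clone (clone 2), so the loss of Spen and other differences of that clone cannot be told apart. Spen is an RNA-binding corepressor through which the long RNA Xist silences genes of the X chromosome. Of the 28 samples, 12 were inputs and 16 were ChIP libraries, a pair in each genotype for Oct4 and for the histone marks H3K27Ac, H3K4me3 and H3K9me3. H3K27Ac marks active enhancers and promoters, H3K4me3 marks promoters and H3K9me3 marks silenced chromatin. The lists gave 1 set of peaks per genotype for each histone mark and 1 set per library for Oct4, and the read depth of the libraries is unknown. In its account of ChIP-seq peak calling the study calls the replicates technical. No source says that the 2 libraries of a genotype came from separate cultures, so the spread between them may be technical.

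Oct4 (Pou5f1) is a POU-domain transcription factor that holds mESCs in the pluripotent state, often by binding next to Sox2. Nodal is a secreted ligand of the TGF-beta family whose signal passes through activin receptors and Smad proteins. Tdgf1 (Cripto) is its coreceptor, and Lefty1 and Lefty2 are secreted inhibitors that the pathway itself turns on. Fgf4 is the growth factor by which mESCs stimulate their own ERK signalling and become able to leave the pluripotent state. Utf1 is a chromatin-bound protein of undifferentiated cells. Dppa3 (Stella) protects DNA methylation marks in the early embryo, Dppa2 and Dppa4 are DNA-binding partners that share a SAP domain, and Dppa5a (Esg1) is an RNA-binding protein of the KH family.

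Oct4 peaks of the 4 libraries that shared a base were joined into a site, and 25 sites fell in the member windows. The sequences of all sites were searched on both strands for the octamer ATGCAAAT, for its looser form ATGCNANT, of which the octamer is a case, and for the looser form directly beside a Sox2-type element, either close (CNTTGTNATGCNANT, the composite) or with 3 more bases between them (CNTTGTNNNNATGCNANT, the spaced composite). These composite forms were chosen because elements of this kind are known at Utf1 and Fgf4, so that they match there is no finding. A site is the joined stretch, so a motif in it need not lie in the peak of every library. Of the 10 sites in at least 3 libraries, 5 held the looser form, against 30.1% of all sites in at least 3 libraries and 16.8% of windows of the same length beside those sites. None of the 4 sites in 2 libraries and none of the 11 sites in 1 library held it, where 17.9% and 7.89% of all such sites did, so that few matches would be found at these shares. The 11 were also shorter, at 120 to 393 bp, than the 10, at 170 to 1013 bp.

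The stretches below are on the plus strand of mm9, with the motif letters in capitals. The sites shown were found in at least 3 libraries and held a motif, or were found in all 4 libraries. Sites listed in Spen KO alone, as at Fgf4, are not among them. The first 5 are centred on the motif, and the next 3, which were found in all 4 libraries and held none of the searched motifs, on the summit of the highest peak. The last is a match with no Oct4 peak.
Utf1 site (chr7:147131527-147131646): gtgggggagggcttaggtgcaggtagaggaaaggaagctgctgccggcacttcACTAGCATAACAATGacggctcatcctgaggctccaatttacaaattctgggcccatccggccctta
Lefty1 near site (chr1:182864084-182864203): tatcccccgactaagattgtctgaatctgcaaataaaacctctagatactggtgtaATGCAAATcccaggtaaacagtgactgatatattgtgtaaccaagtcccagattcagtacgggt
Tdgf1 site (chr9:110850440-110850559): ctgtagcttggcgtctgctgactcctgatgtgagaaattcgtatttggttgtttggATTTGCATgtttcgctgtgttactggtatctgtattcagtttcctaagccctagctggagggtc
Dppa3 site (chr6:122574599-122574718): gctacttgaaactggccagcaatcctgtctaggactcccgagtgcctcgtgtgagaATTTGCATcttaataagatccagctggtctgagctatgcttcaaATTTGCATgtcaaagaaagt
Dppa5a downstream site (chr9:78212615-78212734): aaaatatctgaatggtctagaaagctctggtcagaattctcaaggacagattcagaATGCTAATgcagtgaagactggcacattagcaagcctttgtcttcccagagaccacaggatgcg
Lefty1 far site (chr1:182855032-182855151): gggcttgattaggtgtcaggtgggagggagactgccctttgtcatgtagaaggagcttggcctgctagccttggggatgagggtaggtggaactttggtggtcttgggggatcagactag
Lefty2 site (chr1:182818874-182818993): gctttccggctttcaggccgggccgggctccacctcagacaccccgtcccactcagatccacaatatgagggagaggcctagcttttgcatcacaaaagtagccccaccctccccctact
Nodal far site (chr10:60878871-60878990): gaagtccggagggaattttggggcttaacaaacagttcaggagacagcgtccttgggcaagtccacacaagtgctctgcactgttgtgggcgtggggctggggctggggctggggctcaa
Fgf4 UTR match (chr7:152050292-152050321): gaaaactCTTTGTTTGGATGCTAATgggat

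The Dppa3 site held the octamer at 2 places in the printed stretch. The composite at Utf1 lay 1.9 kb past the start of the gene, at chr7:147131580-147131594, and the summit of the highest peak of its site was 357 bp away. A single spaced composite was found in all member windows, at chr7:152050299-152050316 in the UTR at the 3′ end of Fgf4, 3.02 kb from its start. It lay inside H3K27Ac of both genotypes but in no Oct4 peak of any library. The search allowed no mismatch, so elements that differ from these strings by a base were not counted. Matches to the composite string were found in 0.235% of all Oct4 sites and 0.564% of those in at least 3 libraries. For the spaced composite string the shares were 0.0261% and 0.188%. Low shares of such strict strings do not show that Sox2-Oct4 elements are rare at these sites. A match describes letters only.

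Oct4 peaks were listed around 8 of the 10 genes, and around more of them in each Spen KO library than in either WT library. The number of Oct4 peaks in the member windows was 4 and 15 in WT replicates 1 and 2, and 23 and 16 in Spen KO replicates 1 and 2. Members with at least 1 peak numbered 4, 7, 8 and 8 in the same order. Both Spen KO libraries were above both WT libraries on either count, although the highest WT count and the lowest Spen KO count of peaks differed by only 1. With 5 or 50 kb on either side this was not so for the count of peaks, nor with 50 kb for members. The mean was 9.5 ± 7.78 peaks in WT and 19.5 ± 4.95 in Spen KO (SD, n = 2), a difference of 10.0 peaks. For members with a peak it was 5.5 ± 2.12 and 8.0 ± 0.0, a difference of 2.5. In the two-sided exact permutation test p was 0.333 for both, the smallest value that 2 against 2 libraries can give. Among all protein-coding genes, 13.2% and 14.2% had an Oct4 peak in the window in WT replicates 1 and 2, and 10.6% and 11.6% in Spen KO replicates 1 and 2.

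WT replicate 1 stood apart from the other Oct4 libraries. It held 1806 peaks, of which 68.9% lay within 1000 bp of the start of a protein-coding gene, against 17.1% of 4111 in WT replicate 2, and 22.7% of 2617 and 17.6% of 3028 in Spen KO replicates 1 and 2. Its 4 member peaks had a median fold enrichment over input of 5.82, under the median of 6.55 over its whole list, and none of the 4 lay near a start. In the other 3 libraries the median fold enrichment of the member peaks was 6.34, 6.85 and 6.92, against 6.34, 6.23 and 6.39 over their lists. The Spen KO minus WT difference was 4.5 peaks and 1.0 members without WT replicate 1, and 15.5 peaks and 4.0 members without WT replicate 2.

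Of the 25 sites, 4 were found in all 4 libraries, 6 in 3, 4 in 2 and 11 in 1. Thus 10 of 25 were in at least 3 libraries, where 13.8% of all 7698 merged sites were. Spen KO replicate 1 alone held 6 of the single-library sites, Spen KO replicate 2 held 3, WT replicate 2 held 2 and WT replicate 1 held none. In the plot of fold enrichment by site, the sites with a point from every library are those of Lefty1, Lefty2, Nodal and Dppa3.

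**Figure D1:**
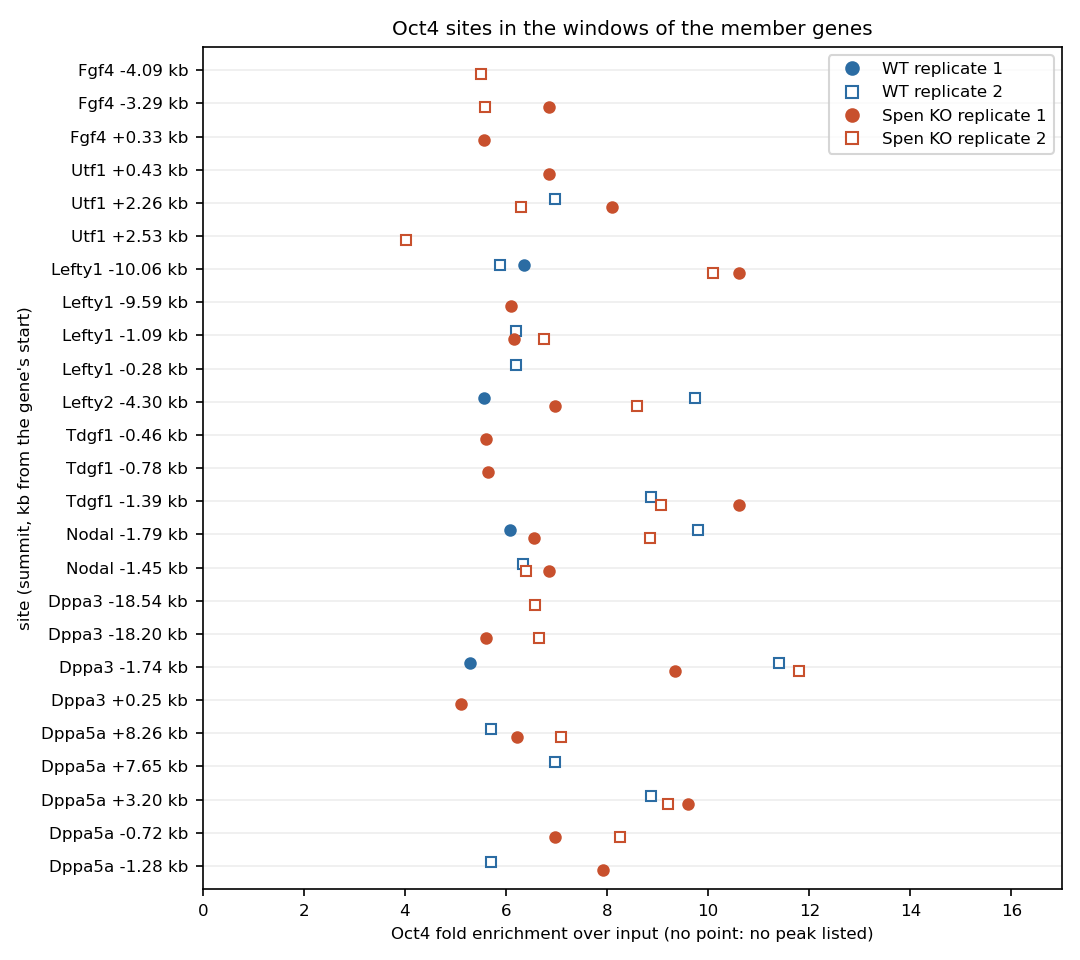
Fold enrichment over input (x axis) of the Oct4 peak at each of the 25 sites (y axis, named by gene and by the distance of the summit of the highest peak from the start of the gene, negative upstream), with 1 point per library that listed a peak. Filled circles are replicate 1 and open squares replicate 2, WT in blue and Spen KO in red. At Lefty1 -10.06 kb the Spen KO points are 10.6 and 10.1 and the WT points 6.35 and 5.88, while at Lefty2, Nodal and Dppa3 the WT points lie on both sides of at least 1 Spen KO point.

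The Nodal ligand gene (chr10:60880720-60888086, plus strand, ENSMUSG00000037171.6) had a pair of neighbouring Oct4 sites upstream. The one at -1.79 kb, intergenic and found in all 4 libraries, had a fold enrichment of 6.08 and 9.79 in WT replicates 1 and 2 and of 6.55 and 8.85 in Spen KO replicates 1 and 2. The groups overlapped. The site at -1.45 kb was listed at 6.34 in WT replicate 2 and at 6.85 and 6.39 in the Spen KO replicates, and was not listed in WT replicate 1.

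Tdgf1, the coreceptor gene (chr9:110842114-110848662, minus strand, ENSMUSG00000032494.8), had its strongest Oct4 site at -1.39 kb. The fold enrichment there was 8.87 in WT replicate 2 and 10.6 and 9.07 in the Spen KO replicates, with no peak in WT replicate 1. This site was 1013 bp wide because the long peak of Spen KO replicate 2 joined pairs of shorter peaks in the other libraries. The octamer lay 448 bp from the highest summit, inside a peak of each Spen KO replicate and in no peak of WT replicate 2. Further sites at -0.46 and -0.78 kb were listed in Spen KO replicate 1 alone, at 5.61 and 5.65.

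The inhibitor genes Lefty1 (chr1:182865153-182868531, plus strand, ENSMUSG00000038793.8) and Lefty2 (chr1:182823239-182829234, plus strand, ENSMUSG00000066652.5) each had a distal site in every library. The Lefty1 site at -10.06 kb had a fold enrichment of 6.35 and 5.88 in WT and of 10.6 and 10.1 in Spen KO. It was the only one of the 4 sites found in all libraries at which both Spen KO values lay above both WT values. Among all 268 sites found in all libraries, 22.0% did so, and at 4.48% both Spen KO values lay below. The Lefty2 site at -4.3 kb was listed at 5.56 and 9.74 in the WT replicates and at 6.96 and 8.6 in the Spen KO replicates, so that the groups overlapped. A nearer Lefty1 site at -1.09 kb, with the octamer, was listed at 6.19 in WT replicate 2 and at 6.16 and 6.76 in the Spen KO replicates. The octamer lay inside the peak of Spen KO replicate 2 alone. The peaks of WT replicate 2 and Spen KO replicate 1 ended before it, at chr1:182864073 and chr1:182864138.

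Fgf4 (chr7:152047291-152051148, plus strand, ENSMUSG00000050917.4) was the gene with Oct4 peaks in the Spen KO lists and in no WT list. The site at -3.29 kb was listed at 6.85 and 5.59 in the Spen KO replicates, which placed it at the 63.9th and 24.0th percentile of their lists by fold enrichment. A second site at -4.09 kb was listed at 5.51 in Spen KO replicate 2 alone, and another, in an exon at 0.33 kb, at 5.57 in Spen KO replicate 1 alone. In total 3 of the 25 member sites were in both Spen KO libraries and in neither WT library, where 4.18% of all sites were. The second of the 3 lay in an intron of Gdf3, within the window of Dppa3, at 5.61 and 6.66. The last lay 0.72 kb upstream of Dppa5a, at 6.96 and 8.26. No member site was in both WT libraries and absent from both Spen KO libraries, a class that held 0.429% of all sites. All 4 peaks of WT replicate 1 lay at sites found in all 4 libraries, so this count says little. For the same reason, absence from both WT libraries, also at Fgf4, was in effect absence from WT replicate 2.

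Utf1 (chr7:147129688-147131011, plus strand, ENSMUSG00000047751.8) had its main site downstream of the gene. The highest fold enrichment there was 6.97 in WT replicate 2 and 8.1 and 6.3 in the Spen KO replicates. Spen KO replicate 1 listed 2 peaks within the site, and the summit of the smaller, at 1.9 kb and 6.23, fell on the composite. In WT replicate 2 and Spen KO replicate 2 the summits were at 1.79 and 1.96 kb. Sites at 0.43 kb, in an exon, and at 2.53 kb were listed in 1 Spen KO library each, at 6.85 and 4.03.

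**Figure D2:**
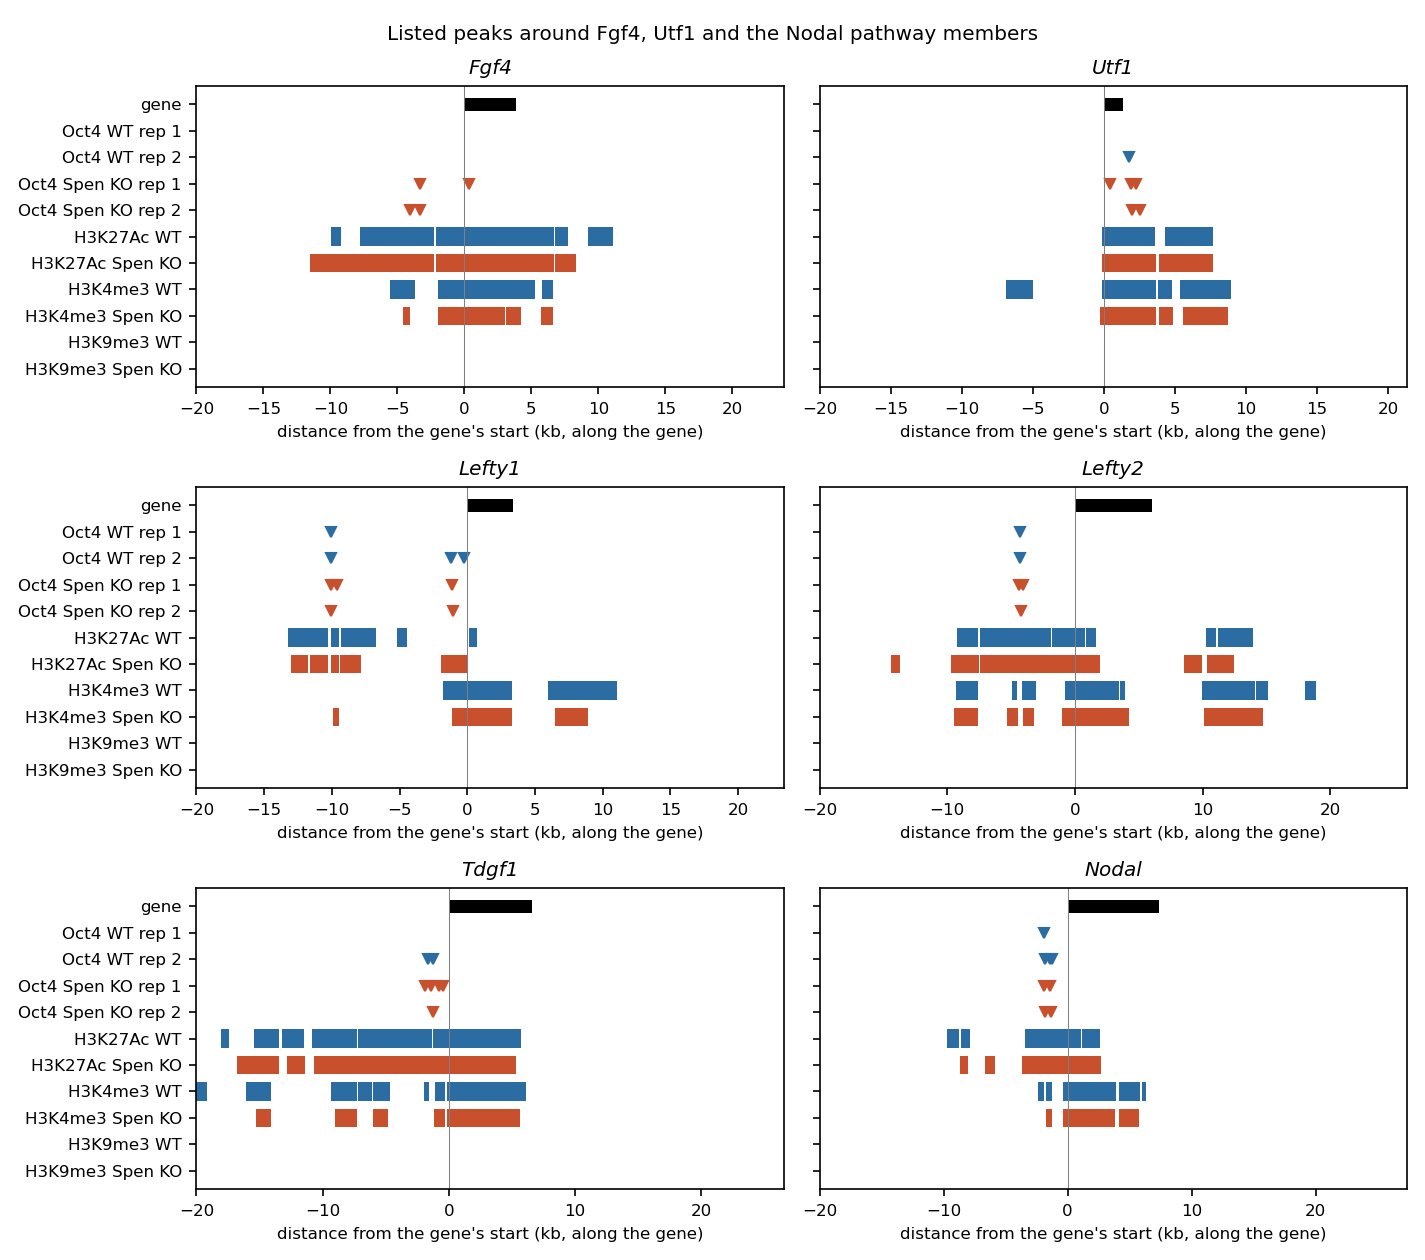
Listed peaks in the windows of Fgf4, Utf1, Lefty1, Lefty2, Tdgf1 and Nodal against the distance from the start of the gene in kb, along the direction of transcription. Bars are histone peaks of 1 list per genotype, triangles are summits of Oct4 peaks in each library (WT blue, Spen KO red), and the black bar is the gene. Fgf4 has Oct4 triangles in the Spen KO rows alone, and the H3K9me3 rows are empty for all 6 genes.

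Among the Dppa genes, Dppa3 and Dppa5a had Oct4 sites, and Dppa2 and Dppa4 had none in any library. Dppa3 (chr6:122576428-122580290, plus strand, ENSMUSG00000046323.2) had the member site with the highest fold enrichment, at -1.74 kb. The values were 5.28 and 11.4 in WT replicates 1 and 2 and 9.35 and 11.8 in Spen KO replicates 1 and 2. The WT values lay on both sides of the Spen KO value of 9.35, and the value of WT replicate 1 was at the 8.8th percentile of its list while the other 3 were between the 93.7th and 97.5th. This was the only member site outside every H3K27Ac, H3K4me3 and H3K9me3 peak of both genotypes. Spen KO replicate 1 also listed a peak in an intron of Dppa3 at 0.25 kb, at 5.1.

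Dppa5a (chr9:78214859-78215984, minus strand, ENSMUSG00000060461.5) had 5 sites, the most of any member. The one at 3.2 kb, past the end of this short gene and with the looser motif, was listed at 8.87 in WT replicate 2 and at 9.6 and 9.2 in the Spen KO replicates. The site at 8.26 kb was listed at 5.7, 6.21 and 7.09 in the same libraries and was nearer to the start of Gsta2, a glutathione transferase gene. A further site, at 7.65 kb, was listed in WT replicate 2 alone at 6.97 and was also nearer to Gsta2. Upstream, the site at -1.28 kb was listed at 5.7 in WT replicate 2 and 7.91 in Spen KO replicate 1.

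**Figure D3:**
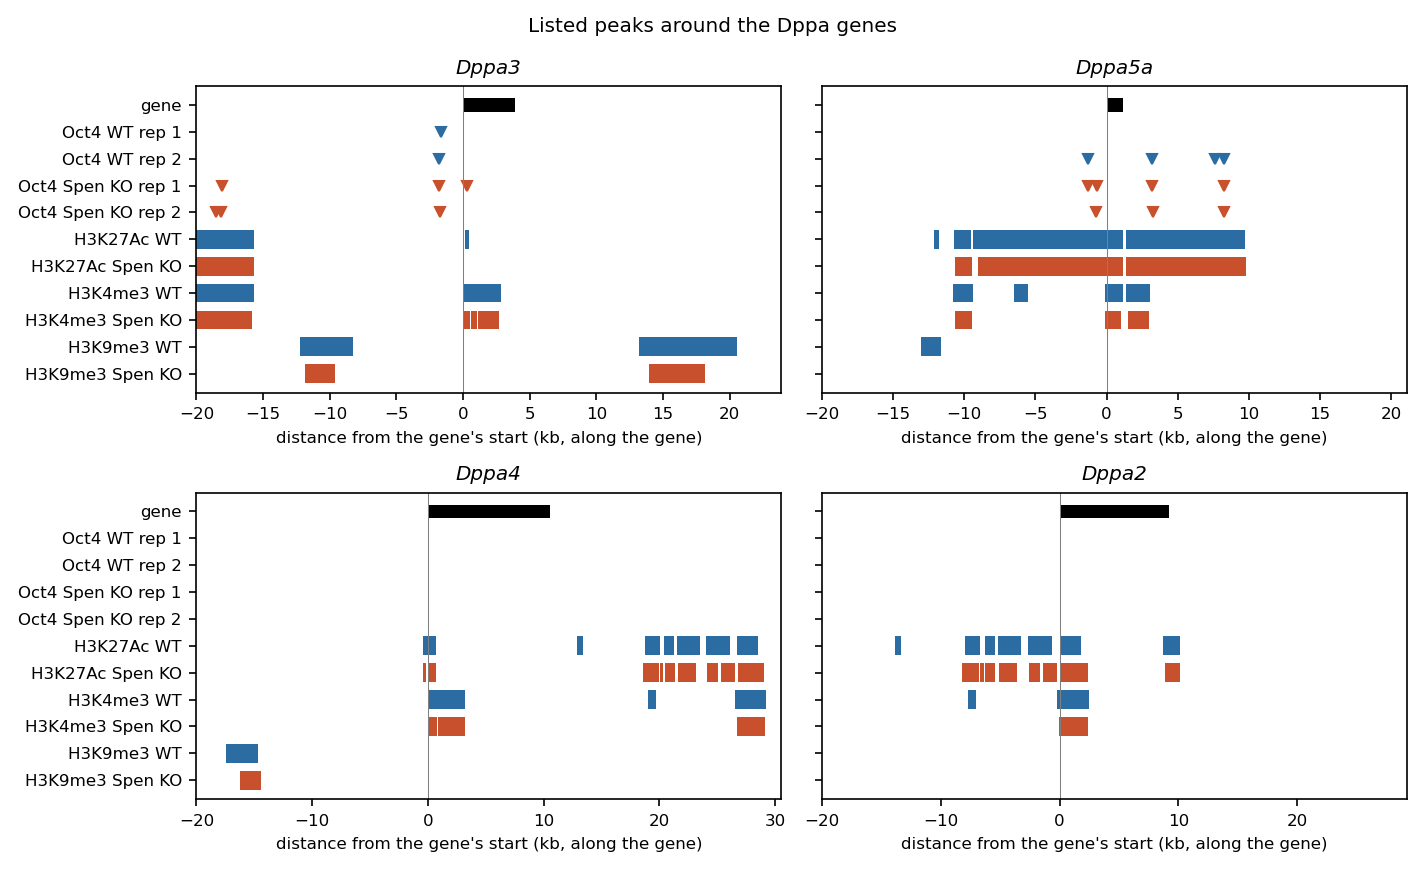
Listed peaks in the windows of Dppa3, Dppa5a, Dppa4 and Dppa2, drawn with distance from the start of the gene in kb on the x axis. Rows, bars and triangles have the same meaning as in the map of Fgf4, Utf1 and the Nodal pathway members. Dppa4 and Dppa2 have no Oct4 triangle, the Oct4 site just upstream of Dppa3 lies between the histone bars, and H3K9me3 bars are at a distance from the starts of Dppa3, Dppa4 and Dppa5a.

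Most member sites lay in active chromatin. Of the 25 sites, 22 lay inside H3K27Ac of WT and 23 inside H3K27Ac of Spen KO, against 33.9% and 35.8% of all 7698 sites. Inside H3K4me3 were 17 and 18, against 57.0% and 53.6% of all sites. None was inside H3K9me3, where 11.7% and 9.22% of all sites were. The sites at -1.09 and -0.28 kb from Lefty1 lay in H3K27Ac of Spen KO and not of WT, and the intronic site of Dppa3 in H3K27Ac of WT and not of Spen KO.

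All 10 genes carried H3K27Ac and H3K4me3 within 1000 bp of the start in WT, where 18.2% and 63.1% of protein-coding genes did. In Spen KO 9 carried H3K27Ac and 10 carried H3K4me3, where 19.7% and 61.5% of genes did. Peaks were ranked in their own list by the mean of both library scores, and the score of each library was ranked in the same way, so that 100 is the top of the list. The groups were said not to overlap where both libraries of a genotype ranked above both of the other. With 1 filtered list per genotype this carries no test, and the filter keeps peaks on which the libraries concur.

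For H3K27Ac at the start, Fgf4, Lefty1 and Lefty2 ranked higher in Spen KO without overlap, as did 19.4% of 3471 genes with a peak in both lists. At Lefty2 the libraries stood at 44.0 and 70.1 in WT and at 88.0 and 99.7 in Spen KO, where a single peak of 9.42 kb spanned the start. In WT that stretch held peaks of 2.6 and 0.802 kb at the start and an upstream peak of 5.54 kb, whose libraries stood at 99.3 and 97.0, so the rank in Spen KO is that of a peak joined to one already near the top in WT. At Lefty1 they stood at 9.9 and 2.51 in WT and at 27.6 and 18.2 in Spen KO, both low, and the peaks of the genotypes lay on either side of the start and shared no base. At Fgf4 they were near the top in either genotype, at 96.8 and 96.5 in WT and at 99.7 and 98.9 in Spen KO.

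Nodal and Dppa5a ranked lower in Spen KO without overlap, as did 22.2% of these genes. Nodal stood at 95.8 and 96.7 in WT and at 80.0 and 94.4 in Spen KO, and Dppa5a at 98.8 and 98.2 against 96.6 and 91.6. Dppa3 had a peak of 0.363 kb at 16.1 and 68.3 in WT and none in the Spen KO list, as was so for 14.8% of the 4075 genes with H3K27Ac at the start in WT. Utf1, Tdgf1, Dppa2 and Dppa4 overlapped. The median member difference, Spen KO minus WT, was -0.0211 percentile points over 9 members and -0.391 over all 3471 genes.

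For H3K4me3 at the start, 5 members ranked lower in Spen KO without overlap, namely Lefty2, Nodal, Dppa3, Dppa2 and Dppa4. Among all 13640 genes with a peak in both lists 3688 (27%) did so. Dppa3 differed most, at 88.0 and 70.0 in WT and at 39.9 and 47.4 in Spen KO, where its WT peak of 2.81 kb was replaced by shorter ones of which the highest was 0.455 kb wide. Dppa4 stood at 84.5 and 81.1 in WT and at 61.3 and 60.8 in Spen KO, and its peak of 3.25 kb was likewise split. Dppa2 stood at 35.2 and 58.0 against 28.7 and 15.5.

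The Nodal start was at 98.7 and 98.2 in WT and at 82.3 and 94.9 in Spen KO, with peaks of 4.22 and 4.21 kb, and Lefty2 was at 93.1 and 83.2 against 82.6 and 71.2. Fgf4 and Dppa5a ranked higher in Spen KO without overlap, as did 14.0% of the genes. Fgf4 stood at 79.3 and 75.6 in WT and at 99.0 and 93.6 in Spen KO. Its WT peak of 7.26 kb was split in Spen KO into peaks of 4.96 and 1.08 kb, of which the first lay at the start. Dppa5a stood at 79.6 and 85.0 against 86.6 and 88.2. Utf1, Lefty1 and Tdgf1 overlapped, and at Tdgf1 the Spen KO libraries were far apart, at 48.0 and 97.0. The median member difference was -8.72 percentile points, against -2.83 over all genes, with 7 members lower and 3 higher. The split into lower and higher was not counted over all genes. For the peak of highest score in the whole window the median was also -8.72. For the widest peak of the window, ranked by width, it was 1.93, so the direction depends on the measure and the peak taken.

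**Figure D4:**
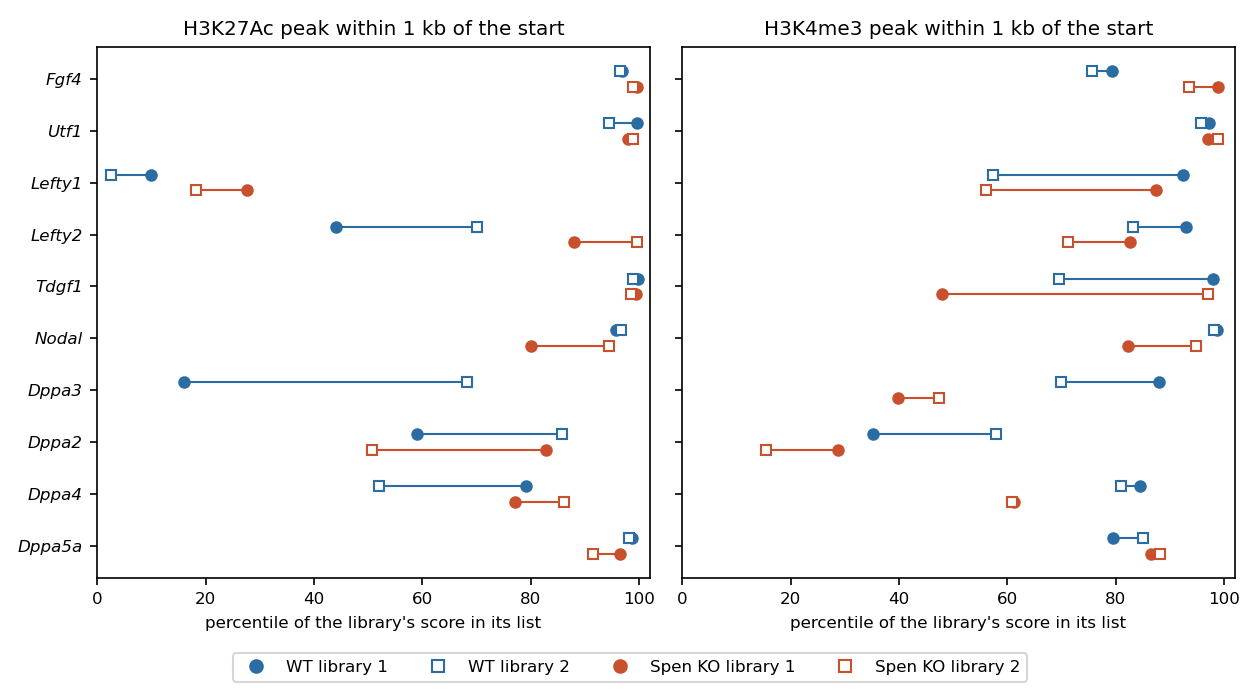
Percentile of each library's score within its list (x axis, 100 is the highest) for the H3K27Ac peak (left) and the H3K4me3 peak (right) within 1000 bp of the start of each gene (y axis). A line joins the 2 libraries of a genotype, WT in blue and Spen KO in red. The lines are apart for Fgf4 in both panels, with Spen KO to the right, and for Dppa3, Dppa2 and Dppa4 in the H3K4me3 panel, with Spen KO to the left; Dppa3 has no Spen KO H3K27Ac point.

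Peaks of 1 genotype alone were a smaller share than over the whole lists for H3K27Ac, and nearly the same share for H3K4me3 of WT. H3K27Ac gave 43 peaks in the member windows in WT and 35 in Spen KO, of which 9 (20.9%) shared no base with the other list in WT and 5 (14.3%) in Spen KO. Over the whole lists these shares were 39.8% and 29.4%. H3K4me3 gave 40 and 33 peaks, of which 9 (22.5%) were WT-only and 1 (3.03%) was Spen KO-only, against 23.2% and 9.49% over the lists. The 1-genotype peaks had a median percentile of 6.61 and 18.2 for H3K27Ac and of 14.8 in WT for H3K4me3. The percentile of such peaks over the whole lists was not taken, so their low ranks are not read as a trait of these windows. The strongest of them was the H3K27Ac peak at the start of Dppa3 in WT, at 38.9, and the Spen KO-only H3K4me3 peak, at 2.67, lay between -9.95 and -9.49 kb from Lefty1, close to its distal Oct4 site. The WT list of H3K4me3 was the longer one, and with lists cut to equal length there were 5 WT-only and 4 Spen KO-only peaks.

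H3K4me3 covered less of every member window in Spen KO. The total was 85.2 kb in WT and 69.7 kb in Spen KO, and all 10 genes were lower. The differences ran from -0.3 kb at Lefty2 to -4.0 kb at Tdgf1, with 14.8 kb in WT and 10.8 kb in Spen KO at the latter. Their median was -1.23 kb, close to the -1.01 kb over all 17782 genes with H3K4me3 in the window. The median cover was 8.6 kb in WT and 6.99 kb in Spen KO for members, and 5.17 and 3.91 kb for all genes. H3K27Ac covered 111.0 and 113.0 kb, with 4 genes higher in Spen KO and 6 lower. The median difference was -0.05 kb, against -0.253 kb over 9708 genes. For neither mark was the share of all genes with less cover in Spen KO counted, and some member windows overlap. The counts of members higher or lower are therefore not read as a trait of these genes. The members with the most H3K27Ac were Tdgf1, with 20.6 and 20.8 kb, Dppa5a, with 20.5 and 19.9 kb, and Fgf4, with 17.8 and 19.6 kb.

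**Figure D5:**
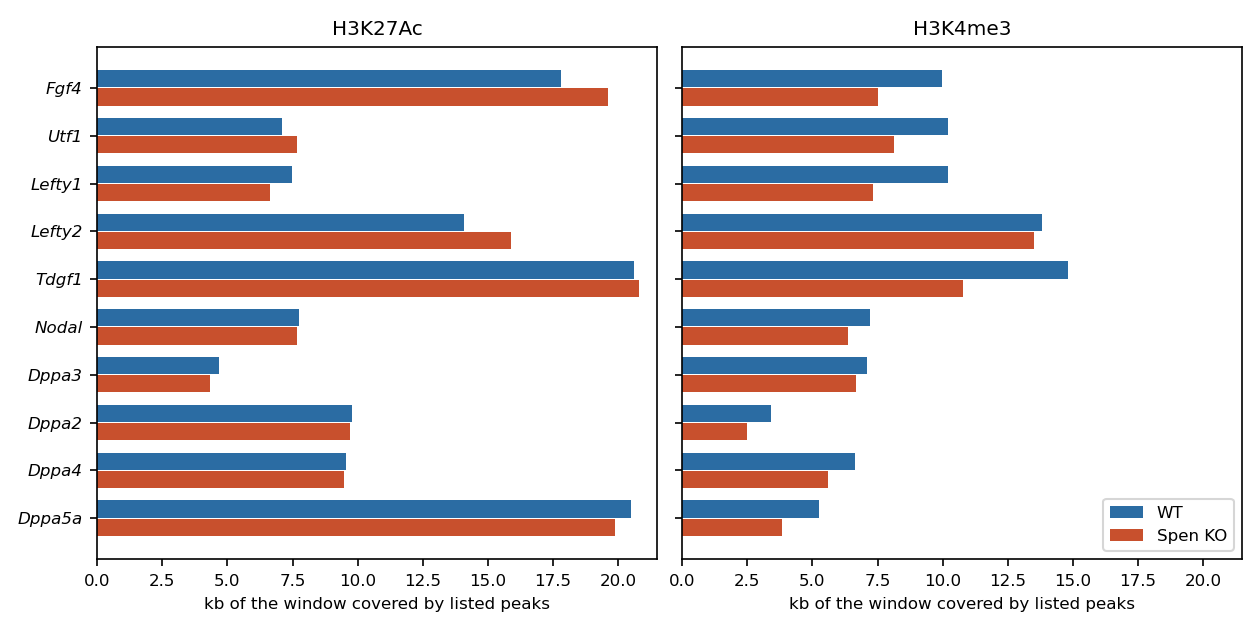
Kilobases of each gene's window covered by listed peaks of H3K27Ac (left) and H3K4me3 (right), with 1 bar per genotype and gene and no error bar, since each genotype had 1 list (WT blue, Spen KO red). The H3K4me3 bar of Spen KO is the shorter one at all 10 genes, from a difference of -0.3 kb at Lefty2 to -4.0 kb at Tdgf1, while the H3K27Ac bars differ in both directions. The median H3K4me3 difference over all genes with the mark in the window, not drawn, was -1.01 kb.

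H3K9me3 was absent from the windows of Fgf4, Utf1, Lefty1, Lefty2, Tdgf1, Nodal and Dppa2 in both lists. It lay in the windows of 3 members in WT and 2 in Spen KO, where 58.9% of all genes had a domain in each list. Dppa3 had a domain on either side, from -12.23 to -8.23 kb and from 13.17 to 20.57 kb in WT, at percentiles 39.1 and 11.1. In Spen KO they ran from -11.83 to -9.63 kb and from 13.97 to 18.17 kb, at 22.1 and 2.22. The kilobases covered were 11.4 in WT and 6.4 in Spen KO. Dppa4 had an upstream domain of 2.8 kb at 64.0 in WT and of 1.8 kb at 22.5 in Spen KO. Dppa5a had a WT-only domain of 1.4 kb, at 4.59, which lay beside Ooep, an oocyte gene. Thus 1 of 4 WT domains and 0 of 3 Spen KO domains were found in 1 genotype, against 11.8% and 23.2% over the lists. The lists held 53745 domains in WT and 70268 in Spen KO, so a percentile is not the same score in both.

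Of the other genes of the Nodal pathway, 18 were examined, and an Oct4 peak lay in the window of 4 and 9 of them in the WT replicates and of 8 and 7 in the Spen KO replicates. Foxh1, the DNA-binding partner of Smad proteins, Skil and Smad7, which restrain the signal, had a peak in all 4 libraries. So did Gdf3, a ligand of the family, but all peaks in its window lay in the window of Dppa3 as well and are the sites described there, the one in all 4 libraries being that at -1.74 kb from Dppa3. Pcsk6, a protease that cleaves the ligand precursor, and Inhbb, an activin subunit, had one in 3. The receptor genes Acvr1b, Acvr1c, Acvr2a and Acvr2b, and Smad2, Smad3 and Smad4, had none in any library. H3K27Ac lay at the start of 6 of the 18 in WT and 8 in Spen KO, and H3K4me3 at 17 and 16. The shares over all protein-coding genes were 13.2% and 14.2% for Oct4 in the WT replicates, 10.6% and 11.6% in the Spen KO replicates, 18.2% and 19.7% for H3K27Ac in WT and Spen KO, and 63.1% and 61.5% for H3K4me3.

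Of 16 other FGF pathway genes, 4 and 7 had an Oct4 peak in the WT replicates and 5 and 5 in the Spen KO replicates. Those with a peak in at least 3 libraries were the receptor gene Fgfr2, the feedback inhibitors Spry2 and Spry4, and Etv4, a transcription factor induced by the pathway. H3K27Ac lay at the start of 11 in WT and 9 in Spen KO, and H3K4me3 at all 16 in both, to be read against the same shares over all genes. Both lists were chosen with earlier results known, and their counts were not tested.

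H3K27Ac was listed at the start of most stem cell marker genes and of no lineage marker gene in either genotype. H3K4me3 did not set these lists apart. Of 7 stem cell marker genes found in the annotation, 5 had H3K27Ac at the start in WT and 6 in Spen KO, and 6 had H3K4me3 in both. Of 7 lineage marker genes none had H3K27Ac, while 6 and 5 had H3K4me3. Over all protein-coding genes the shares were 18.2% and 19.7% for H3K27Ac and 63.1% and 61.5% for H3K4me3. Esrrb, a stem cell marker, had neither mark at the start in either genotype. At the start of Spen itself H3K4me3 was listed in both genotypes, at the 68.0th percentile in WT and the 89.4th in Spen KO, and H3K27Ac in Spen KO alone. A peak at the start does not show whether the deleted part of the gene is present, so these lists did not check the knockout.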

How the data were processed

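Paired reads were aligned by the authors to the mm9 build (Bowtie2), who kept uniquely mapped concordant pairs, removed duplicates with Picard and found peaks with MACS2 (q-value 0.01) against input. They also made alignments with multiply mapping reads placed at random, and which alignments gave the lists is not stated. For H3K27Ac and H3K4me3, the deposited lists hold peaks with an irreproducible discovery rate under 0.05 between libraries, which the study calls technical replicates, with a score per library whose MACS2 column is not stated. The deposited H3K9me3 lists hold joined windows with a score and a p-value column. How they were made is not certain, and the score alone was used. The deposited Oct4 lists hold the fold enrichment over input and the −log10 q-value for each library, with no filter between libraries. Input libraries and read counts were not analysed here, so the read-count test of the study was not repeated. Absence from a list can mean a signal slightly below the calling threshold, and list length depends on depth.

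Groups and replicate numbers came from the sample labels. Genes, starts and positions were from GENCODE vM1, and all sequences from the mm9 genome (NCBIM37). Peaks sharing at least 1 bp were shared. Percentiles are ranks within a list. Oct4 counts were compared by two-sided exact permutation over the 6 assignments of 4 libraries, and histone lists were described without a test. Code was tested on simulated peaks and run with Python 3.11.15, pandas 2.3.3 and numpy 2.4.6. The members, gene lists and motifs were chosen with earlier results of these data known. All 10 members were described with every Oct4 site. Sequences were printed for sites in at least 3 libraries that held a motif or were found in all 4 libraries, a choice made after their values were seen. Pathway genes were named if in at least 3 Oct4 libraries, apart from 1 that is not reported here, and the receptor and Smad genes without a peak, and the neighbouring genes, were named after their values were seen. The marker lists held 8 genes each, of which Tfcp2l1 and Sox1 were not found by name in the annotation.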

Additional observations from a re-analysis of the deposited data

How the results depend on the processing

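The Spen KO minus WT difference in Oct4 peaks and in members with a peak stayed positive under all 9 alternatives each, and p was between 0.333 and 1.0. Peaks differed by 8.0 with 5 kb and 9.5 with 50 kb on either side, by 8.5 in the stronger 50% of every list and by 10.0 with lists of the shortest length, and members by 3.0, 2.0, 4.0 and 2.5. With 5 and 50 kb the permutation p for peaks was 0.667, so both Spen KO libraries no longer stood above both WT libraries. The same was so for members with 50 kb and in the stronger 50%, where p was above 0.333. In the other settings of these 4, p was 0.333 and the genotypes stayed apart. Leaving out 1 library gave 4.5 to 15.5 peaks and 1.0 to 4.0 members. The labels share replicate numbers, but no source ties same-numbered libraries together. The difference between replicates 1 and 2 in whether a site was listed was taken in each genotype. The WT and Spen KO differences correlated at r = 0.0498 over 7698 sites. Since WT replicate 1 stood apart, this cannot decide whether the libraries were paired. With the replicate number as a block the differences were 10.0 peaks and 2.5 members, and p was 0.5, the smallest possible.

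Counts of peaks of 1 genotype were small and moved with most settings. For H3K27Ac, WT-only and Spen KO-only counts were 4 and 2 with 5 kb windows, 5 and 2 with a gap of up to 1000 bp, and 2 and 3 in the stronger 50% of the lists, and WT-only peaks were 2 with lists of equal length. For H3K4me3 they were 3 and 0 with 5 kb windows, 16 and 4 with 50 kb windows, 5 and 4 with equal lengths, and 3 and 2 in the stronger 50%, and WT-only peaks were 5 with the gap. For H3K9me3 they were 0 WT-only with 5 kb windows, 2 and 1 with 50 kb windows, and 4 WT-only with equal lengths. Requiring 50% of the shorter peak changed no count. The median percentile difference of the strongest peak in the window was -0.194 for H3K27Ac and -8.72 for H3K4me3. Each other ranking took its own highest peak of the window, which for width is the widest one. The median stayed within the spread over members, but its sign turned for H3K27Ac with ranking by the lower library score (0.94) or by width (1.29). For H3K4me3 it turned by width (1.93, against -3.73 by the lower score). Which differences come from sequencing depth was not tested.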

Other observations

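Several peaks in the windows lay nearer to other genes. Along the direction of the member gene, Lrrc2 starts at -5.39 kb from Tdgf1, Gdf3 at -16.3 kb from Dppa3, and Ooep at -10.5 kb and Gsta2 at 12.4 kb from Dppa5a. Of the 25 Oct4 sites, those in the intron of Gdf3 at -18.2 and -18.54 kb from Dppa3 lay inside H3K27Ac and H3K4me3 of both genotypes. The first was listed at 5.61 and 6.66 in the Spen KO replicates and the second at 6.57 in Spen KO replicate 2 alone. Tmem63a starts 7.32 kb past the start of Lefty1, and no Oct4 site was nearest to it.

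Dppa2 and Dppa4 had no Oct4 peak, yet their shared interval held a row of H3K27Ac peaks in both lists. The window of Dppa4 held 7 H3K27Ac peaks in WT and 9 in Spen KO, which covered 9.54 and 9.49 kb, and the highest was at the 85.0th percentile in WT and the 87.4th in Spen KO. At Dppa3 the upstream Oct4 site had the highest fold enrichment of all member sites, and no H3K27Ac peak lay on it in either list.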
